A study of Mus musculus with 2 samples.

Results

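The genes described here encode the contractile apparatus of heart muscle: 36 sarcomere, Z-disc and titin-associated genes, chosen by symbol out of 27999 features in the count table. All 36 were present under those symbols, and Murc is named Cavin4 in the GENCODE annotation. They were followed in 2 droplet RNA libraries of right ventricle from C57/BL6J mice. The animals carried loxP-flanked alleles in the homozygous state, written CBP flox/flox together with p300 flox/flox, and also Trap flox/flox (trap in lower case for library 2). Pups received AAV9 at postnatal day 1 for p300/CBP knockout, and hearts were taken at postnatal day 21. Both libraries carry the same genotype, treatment and ages, so the study as given here is 1 group with no untreated sample, and no difference between knockout and control could be measured. The labels do not name the recombinase or its promoter, what the Trap allele contains, or the animals behind a library. Per the labels' protocols the tissue was frozen, digested with collagenase and enriched with CD45 beads before loading.

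The sarcomere is the repeating unit of the myofibril. Thick filaments of myosin with its light chains pull on thin filaments of actin, tropomyosin and troponin, titin spans from the Z-disc to the M-band, and the Z-disc anchors thin filaments and carries proteins that sense stretch. In the mouse heart several of these proteins come in chamber-specific forms. Myl2 and Myl3 encode the ventricular regulatory and essential light chains, and Myl7 and Myl4 encode the atrial ones. After birth the slow skeletal troponin I of the fetal heart (Tnni1) gives way to the cardiac form (Tnni3).

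Each UMI (unique molecular identifier) is taken as 1 RNA molecule. There were 57982200 UMIs over 12736 barcodes in library 1 (median 3586 per barcode) and 50199793 over 9447 in library 2 (median 3945). The libraries shared 17 barcode sequences. Cells were clustered with all members left out. Ventricular cardiomyocytes came mostly from different clusters in each library: of the 2 large clusters of library 1, with 4180 and 2407 of its cells, library 2 had 121 and 122, while the cluster with 1963 library 2 cells had 687 from library 1. Each result is therefore given per library. Levels below are CPM, the count of a gene per 1000000 UMIs of the class, not divided by gene length, so genes are not ranked against each other. Intervals are exact 95% Poisson or binomial limits and cover counting error only. In these samples fewer cells of a type and less RNA per cell cannot be told apart in summed counts.

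In ventricular cardiomyocytes of more than 800 UMIs (7274 cells in library 1 and 2206 in library 2), the 36 members together made up 5.07% of UMIs in library 1 and 5.83% in library 2, a mean of 5.45% ± 0.533 (SD, n = 2). In fibroblasts the members made up 0.757% and 0.248% of UMIs in the same order of libraries. The other non-muscle classes lay between 0.330% (endocardial, library 2) and 1.62% (epicardial or mesothelial, library 1). The non-muscle classes of library 1 thus carried a larger share of member UMIs than those of library 2. The fibroblast level of a member, as a share of its ventricular level, had a median of 23.2% in library 1 and 6.79% in library 2. It was 68.8% and 29.3% for Myl3, 63.5% and 24.3% for Actc1, 52.1% and 80.7% for Flnc, 51.1% and 39.5% for Cryab, 48.2% and 20.8% for Myl2 and 44.1% and 20.6% for Tpm1. Whether a member's fibroblast UMIs are stray RNA or made by the fibroblasts was not tested.

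Among the 4 genes of titin and the thick filament, Ttn (chr2:76703980-76982547, minus strand, GRCm38), which encodes titin, held 20552 and 27171 CPM in libraries 1 and 2. That was 40.5% and 46.6% of all member UMIs. Without Ttn the other 35 members summed to 3.02% and 3.11% of UMIs, so most of the difference between the libraries in the summed level was in Ttn. Mybpc3, which encodes cardiac myosin-binding protein C, averaged 1214 ± 133 CPM (SD, n = 2). Myom1 and Myom2, for the M-band proteins myomesin 1 and 2, averaged 309.7 ± 40.6 and 592 ± 81.2 CPM.

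The ventricular light chains stood above their fibroblast level in both libraries. Myl2 had 1072 and 857 CPM in libraries 1 and 2, against 517 and 178 CPM in fibroblasts, and Myl3 had 466 and 391 CPM, against 321 and 115 CPM. The atrial light chains were below their level in fibroblasts. Myl4 had 6.36 and 3.73 CPM in ventricular cells, against 18.2 and 7.80 CPM in fibroblasts, and Myl7 had 3.65 and 0.533 CPM, against 8.87 and 1.68 CPM. Whether the ventricular UMIs of Myl4 and Myl7 are background was not tested.

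Of the 10 thin-filament members, Tnnt2 (cardiac troponin T), Tnni3 (cardiac troponin I), Tpm1 (tropomyosin) and Tnnc1 (troponin C) averaged 4397 ± 319, 960.4 ± 164, 1047 ± 154 and 443 ± 88.2 CPM (SD, n = 2). Actc1, the cardiac actin gene, averaged 287 ± 45.2 CPM, and Nebl, which encodes the nebulin relative nebulette, 814 ± 22.0 CPM. Tmod1 and Lmod2, for the pointed-end proteins tropomodulin 1 and leiomodin 2, averaged 330.4 ± 65.1 and 354 ± 9.46 CPM. The fetal and skeletal forms were close to 0. Tnni1 had 0.244 CPM in library 1 and 0.373 CPM in library 2, and Acta1, the skeletal actin gene, had 1.68 and 1.33 CPM.

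The Z-disc members, 12 in all, made up 1.26% and 1.29% of ventricular UMIs. Fhl2, a LIM-domain protein bound to titin, differed least between libraries, at 5556 and 5480 CPM. Pdlim5 (1640 and 2304 CPM), Ldb3 (1330 and 1765 CPM), Actn2, which encodes alpha-actinin (915 and 1062 CPM), and Synpo2 (973 and 934 CPM) also lay within 1.5-fold. Tcap, which encodes telethonin at the titin end, had 595 CPM in library 1 and 130 CPM in library 2, a 4.57-fold difference. Csrp3 (muscle LIM protein; 381 and 206 CPM), Ankrd1 (a stretch-responsive ankyrin repeat protein; 188 and 109 CPM) and Xirp1 (35.5 and 21.8 CPM) were also over 1.5-fold higher in library 1. Myoz2, for the calcineurin-binding calsarcin 1, had 636 and 544 CPM, Xirp2 339.7 and 285 CPM, and Flnc (filamin C) 55.6 and 51.1 CPM. The 6 remaining members are cytoskeletal, chaperone, formin, kinase, Kelch and caveola genes. Fhod3, a formin gene, had 3279 and 4601 CPM, Tnni3k, for a kinase bound to troponin I, 1386 and 1623 CPM, and Des (desmin) 169 and 114 CPM. The chaperone gene Cryab had 82.1 and 47.7 CPM, Murc 49.9 and 51.9 CPM, and Klhl41 18.1 and 13.3 CPM.

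Of 35 members with at least 20 ventricular counts, 7 were at least 1.5-fold higher in library 1 than in library 2, where 17.9% of 15392 genes were, and 0 were at least 1.5-fold lower, where 8.32% of genes were. The 7 were Myl4 and Myl7, both below their fibroblast level, and Tcap, Csrp3, Xirp1, Ankrd1 and Cryab. For Tcap the gap stood within each of the 3 ventricular clusters: 592 CPM in library 1 and 95.8 CPM in library 2 in the first, 689.5 and 143 CPM in the second, and 443 and 132 CPM in the third. Mybpc3 followed cluster in both libraries, with 1149, 1696 and 1406 CPM over the 3 clusters of library 1 and 952, 1463 and 1118 CPM over those of library 2. Ankrd1 had 145, 223 and 333 CPM in library 1 and 44.4, 109.8 and 112 CPM in library 2. Xirp2 had 316, 317 and 496 CPM in library 1 and 228, 258 and 289 CPM in library 2. The third cluster was the highest for Ankrd1 and Xirp2 in both libraries, and the second for Mybpc3. No test was run between clusters.

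To compare cells at 1 depth, each ventricular cell was thinned to 500 UMIs. A Ttn UMI was then found in 99.9% of cells of library 1 and 99.8% of library 2, against 50.6% and 18.2% of fibroblasts. Tnnt2 was found in 86.6% and 86.3% of ventricular cells, against 34.0% and 8.94% of fibroblasts, and Fhl2 in 86.2% and 79.0%, against 24.2% and 6.91%. The median ventricular cell showed 10 of the 36 members in each library, and the median fibroblast 3 in library 1 and 1 in library 2. Median depths before thinning were 4732 and 7361 UMIs for ventricular cells and 1967 and 3105 for fibroblasts. Before thinning, the shares with Tnnt2 were 99.97% and 99.9% in ventricular cells, against 77.0% and 43.9% in fibroblasts. A Ttn UMI was found in at least 99.9% of ventricular cells of each library, against 91.2% and 68.7% of fibroblasts. The shares with Fhl2 were 99.6% and 99.4% in ventricular cells, against 67.0% and 39.2%.

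The variance of thinned counts between ventricular cells, divided by their mean, is 1 when cells differ only by counting. Over the genes with at least 500 thinned counts (1276 in library 1 and 284 in library 2) the median ratio was 1.03 in library 1 and 1.10 in library 2. Ttn had 1.99 and 2.31, and Fhl2 1.79 and 2.56, the highest of the members that could be scored. At least 98.2% of the other genes had a lower ratio in each library. Ttn and Fhl2 were also the most counted members after thinning (69040 and 19965 counts in library 1, 28810 and 6155 in library 2). Where cells differ, the ratio can grow with the count. Genes were not matched on count, so this ranking is a description. Ankrd1 (1.33) and Xirp2 (1.24) were above 97.3% of genes or more in library 1 and were too low to score in library 2. Myoz2 had 1.04 and 0.984, and Lmod2 had 1.01 in library 1.

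Atrial-type cardiomyocytes formed a small cluster, 100 cells in library 1 and 25 in library 2, named from atrial markers that include no member. Those 9 markers summed to 16058 and 2762 CPM, against 761 and 521 CPM in ventricular cells. All 9 were higher in both libraries. The 4 ventricular markers summed to 31.6 and 50.2 CPM, against 66.9 and 49.2 CPM, so they were not lower in library 2. There Irx4 and Hey2 had 0 CPM in atrial-type cells, while Irx3 and Irx5 were higher than in ventricular cells. The class was a mixture. At finer clustering (Leiden resolution 2) 59 of its 100 cells in library 1 and 7 of its 25 in library 2 stayed atrial-type, and these held 884 of the 886 Myl7 counts and 1051 of the 1055 Myl4 counts in library 1, and all 35 and 62 in library 2. The other 41 and 18 cells had 7.49 and 0 CPM of Myl7 and 989 and 734 CPM of Myl2, and their atrial markers summed to 978 and 668 CPM. Values of the whole class below are means over both kinds of cell, in unequal shares in the 2 libraries. Since a class made by clustering against another is no test, the following folds are a description. A gene was counted when it was at least 2-fold apart in the same direction in both libraries.

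Myl7 and Myl4, the atrial light chain genes, were the members that set the atrial-type cells apart most. Myl7 had 1400.3 and 159.8 CPM in libraries 1 and 2, against 3.65 and 0.533 CPM in ventricular cells. That is 383-fold higher in library 1 (interval 322 to 459) and 299.9-fold higher in library 2 (145 to 679). If the ventricular UMIs are background, which was not tested, these folds are only lower bounds. Myl4 had 1667 and 283 CPM, against 6.36 and 3.73 CPM, 262-fold (229 to 301) and 75.9-fold (53.0 to 108) higher, with the same limit. In both genes every library's atrial-type level lay far above every ventricular level, and library 1 lay above library 2. Myl7 (chr11:5896637-5898782, minus strand, GRCm38) spans 2.15 kb and Myl4 (chr11:104550663-104595753, plus strand) 45.1 kb, both on chromosome 11.

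**Figure D1:**
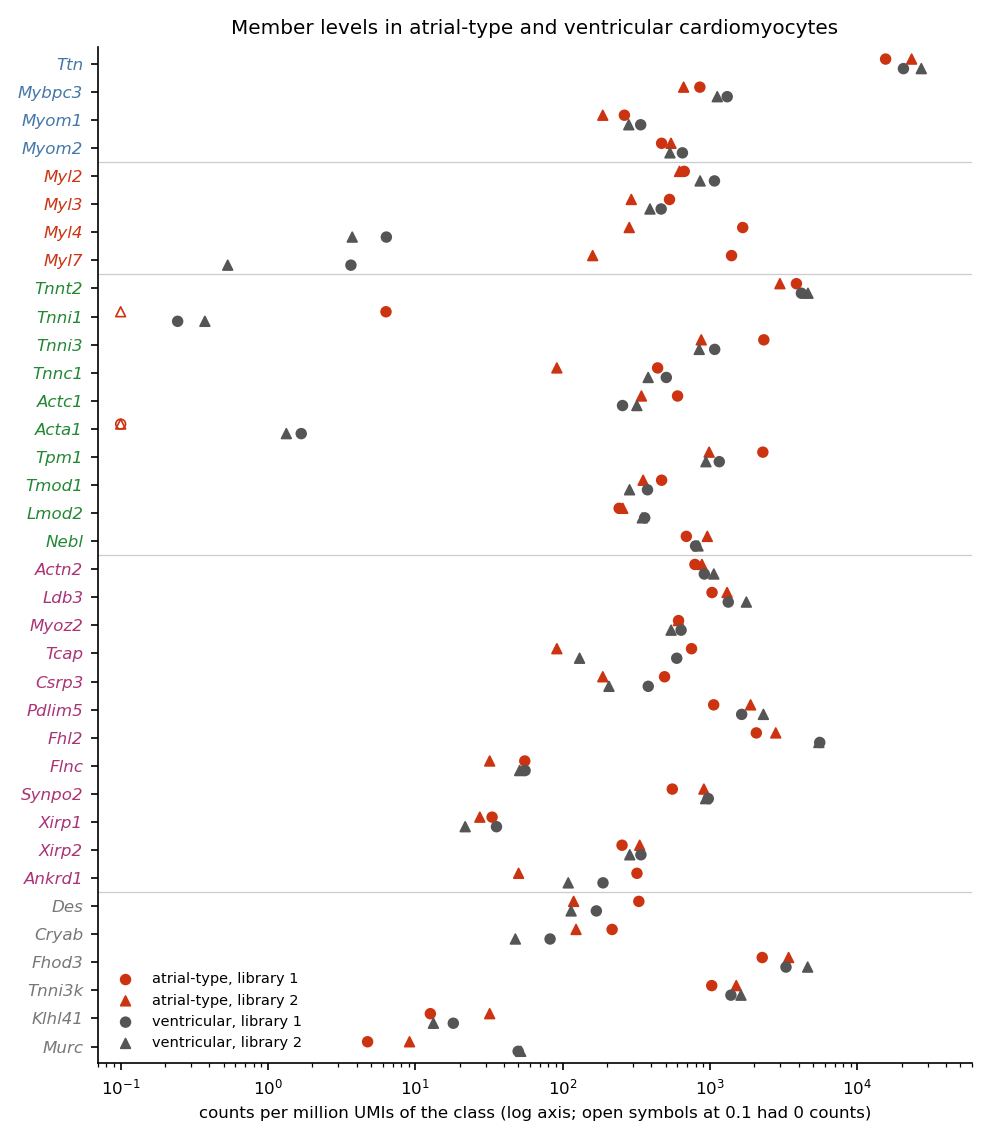
Level of each member in CPM (log axis) in atrial-type cells (red) and ventricular cells (grey) of library 1 (circles) and library 2 (triangles). Rows follow the order titin and thick filament, light chains, thin filament, Z-disc and other members, and open symbols at the left edge had 0 counts. Myl4 and Myl7 stand apart by more than 75-fold in each library, and most other members lie within 2-fold.

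The stretches from 250 bases before to 50 after a RefSeq start of transcription (GRCm38.p6) are shown for Myl7 and Myl4, and for the ventricular essential light chain gene Myl3 as a contrast. Each is the first start listed for its gene, and which start these cells use was not tested. Capitals mark matches on either strand to 7 motifs. For TEAD factors CATTCC was searched. The letters AGATAA stood for the site of GATA factors. For T-box factors the motif was AGGTGT. The E-box was searched as CACGTG. The core promoter motif was TATAAA. The CArG box of serum response factor, which matches both strands at once, and the MEF2 site complete the list. The Myl7 stretch (chr11:5898733-5899032, minus strand) holds a CATTCC and a CArG box, the Myl3 stretch (chr9:110763428-110763727, plus strand) holds a CATTCC on each strand and a CArG box, and the Myl4 stretch (chr11:104550413-104550712, plus strand) holds none of the 7.
Myl7: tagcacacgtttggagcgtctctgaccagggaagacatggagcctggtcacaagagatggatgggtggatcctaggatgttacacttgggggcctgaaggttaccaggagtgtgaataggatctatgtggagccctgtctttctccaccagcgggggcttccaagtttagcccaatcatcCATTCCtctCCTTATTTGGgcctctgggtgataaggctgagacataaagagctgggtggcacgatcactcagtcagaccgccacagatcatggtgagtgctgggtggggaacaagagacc
Myl4: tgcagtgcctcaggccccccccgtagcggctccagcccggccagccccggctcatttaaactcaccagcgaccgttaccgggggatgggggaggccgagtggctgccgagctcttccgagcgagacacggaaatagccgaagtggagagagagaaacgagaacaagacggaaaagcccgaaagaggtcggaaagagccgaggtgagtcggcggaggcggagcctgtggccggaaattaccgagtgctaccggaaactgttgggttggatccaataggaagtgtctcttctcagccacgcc
Myl3: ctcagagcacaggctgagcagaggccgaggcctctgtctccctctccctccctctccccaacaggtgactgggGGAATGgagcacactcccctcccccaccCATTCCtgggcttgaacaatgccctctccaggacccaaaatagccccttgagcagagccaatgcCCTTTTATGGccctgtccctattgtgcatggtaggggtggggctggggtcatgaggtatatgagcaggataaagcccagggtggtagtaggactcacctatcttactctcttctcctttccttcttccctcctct
Such stretches were found for 31 of the 36 members. A CArG box lay in 8 of these 31 (25.8%), against 1.81% of 27025 genes with a stretch in the same table, namely Acta1, Actc1, Fhl2, Ldb3, Myl3, Myl7, Myom1 and Nebl. A MEF2 site lay in 8 of 31 (25.8%), against 3.70% of all genes, and CATTCC in 12 of 31 (38.7%), against 16.6%. The other motifs were nearer to the share of all genes. TATAAA lay in 22.6% of the members' stretches, against 15.7%. The share with AGATAA was 19.4%, against 12.7%. For AGGTGT it was 12.9%, against 15.7%, and CACGTG had 6.45%, against 8.09%. These are letter matches and no evidence of binding.

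Apart from these light chains, 1 more member was higher and 1 lower in both libraries. Cryab, which encodes the small heat shock protein alpha-B crystallin (chr9:50751325-50756636, plus strand), had 217 and 123 CPM in atrial-type cells, against 82.1 and 47.7 CPM in ventricular cells, 2.64-fold (2.21 to 3.13) and 2.58-fold (1.69 to 3.78) higher. Murc, a caveola-associated protein gene (chr4:48663514-48673502, plus strand), had 4.74 and 9.13 CPM, from 3 and 2 counts, against 49.9 and 51.9 CPM. Its ratio was 0.0951 (interval 0.0196 to 0.278) and 0.176 (0.0213 to 0.637). Murc passed the count minimum through its ventricular counts. Of 35 members that passed, 3 were thus higher and 1 lower. Over 12901 genes 6.1% were at least 2-fold higher in both libraries and 0.643% at least 2-fold lower. The median log2 ratio was -0.20 in library 1 and -0.18 in library 2 over the members, and 0.15 and 0.28 over all genes. Fhl2 fell just short, with 2063 and 2794 CPM in atrial-type cells, against 5556 and 5480 CPM in ventricular cells, 2.69-fold lower in library 1 and 1.96-fold lower in library 2.

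The counting intervals lay below 1 in both libraries for 13 of the 35 members (37.1%), against 2.07% of the 12901 genes, and above 1 in both for 3 (8.57%), against 3.37%. Intervals narrow with the count of a gene, and the members' counts were not matched to those of other genes, so these shares are a description. The 13 in the whole class were Ttn, Mybpc3, Myom1, Myl2, Tnnt2, Tnnc1, Lmod2, Actn2, Ldb3, Pdlim5, Fhl2, Fhod3 and Murc. Ttn had 15554 and 23355 CPM in atrial-type cells, against 20552 and 27171 CPM, and Myl2 had 669 and 621 CPM, against 1072 and 857 CPM. Fhod3, whose product is needed to build cardiac sarcomeres in the mouse, had 2262 and 3415 CPM, against 3279 and 4601 CPM. Over the whole class, Actc1, Tnni3, Tpm1 and Des were higher in library 1 alone. Tnni3 had 2319 CPM in atrial-type cells of library 1, against 1076 CPM, and 872 CPM in library 2, against 845 CPM. Myl3, Nebl and Ankrd1 went opposite ways in the 2 libraries, Ankrd1 at 319 and 50.2 CPM, against 188 and 109 CPM. Other measures moved with the class. Mitochondrial counts made up 1.98% of UMIs in atrial-type cells of library 1, against 0.245% in ventricular cells, and 0.236% in library 2, against 0.119%. The 8 fibroblast markers summed to 1612 and 374 CPM in atrial-type cells, against 163 and 277 CPM in ventricular cells, with 8 and 7 of them higher. The 8 endothelial markers summed to 480.5 and 288 CPM, against 54.5 and 78.1 CPM, with all 8 higher in each library, and the 5 endocardial markers to 428 and 159.8 CPM, against 34.7 and 80.2 CPM, with 5 and 4 higher. Their part in the differences was not tested. Tnni1 had 4 counts in library 1 and none in library 2 in atrial-type cells, and Acta1 had none in either.

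In the 59 and 7 cells that stayed atrial-type at resolution 2, Myl7 had 2416 and 923 CPM, against 3.66 and 0.527 CPM in ventricular cells, and Myl4 2873 and 1635 CPM, against 6.39 and 3.69 CPM. In library 2 these levels rest on 35 and 62 counts. Myl2 had 435 and 79.1 CPM, the second from 3 counts, against 1069 and 854 CPM. Fhl2 had 1837 and 1609 CPM, against 5533 and 5455 CPM, and Fhod3 had 1367 and 2004 CPM, against 3276 and 4592 CPM. Cryab had 319.8 and 237 CPM, against 81.7 and 48.3 CPM. Myl7, Myl4 and Cryab were thus at least 2-fold higher in both libraries (8.03% of 12932 genes were) and Myl2, Fhl2 and Fhod3 at least 2-fold lower (0.905% of genes). Murc was no longer 2-fold lower in both, at 0.167 and 0.514 times its ventricular level. Tnni3 was higher in both libraries, at 3.05 and 1.66 times (1.24 to 2.17 in library 2). So was Actc1, at 3.37 and 1.66 times (1.01 to 2.57). Tpm1 and Des stayed higher in library 1 alone. Ankrd1 was at 2.84 and 1.95 times (0.842 to 3.85 in library 2), and Nebl at 0.865 and 0.666 times (0.412 to 1.02). Myl3 still went opposite ways, at 1.43 and 0.472 times. Of the members below 1 over the whole class, Ttn, Mybpc3, Myl2, Ldb3, Pdlim5, Fhl2 and Fhod3 kept intervals below 1 in both libraries. Lmod2, Actn2 and Murc did so in library 1 alone. Tnnt2 was above 1 in library 1, at 1.06 times (1.005 to 1.11), and at 0.819 (0.691 to 0.965) in library 2. Tnnc1 was at 1.299 (1.14 to 1.48) in library 1 and 0.629 in library 2, from 9 counts. Myom1 was at 0.919 (0.757 to 1.11) and 1.13 (0.585 to 1.98). In the whole class, 44 of the 50 other sarcomere genes listed with the members passed the minimum. Myl1, an essential light chain gene, was higher in both libraries, at 83.8 and 41.1 CPM, against 2.24 and 1.39 CPM, and so was Pdlim7, at 79.0 and 27.4 CPM, against 22.0 and 11.1 CPM. Myh7b, a slow myosin heavy chain gene, was lower, at 138 and 123 CPM, against 381 and 396 CPM.

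Low-UMI cardiomyocyte droplets, with 500 to 800 UMIs, numbered 871 in library 1 (493505 UMIs) and 16 in library 2 (9139 UMIs), so library 1 carries nearly all of their counts. They came from clusters that scored best for cardiomyocyte markers, whether or not the cluster was named. They were set against ventricular cells of at least 2000 UMIs, which came from named clusters only. The cardiomyocyte markers summed to 44324 and 24729 CPM in the droplets, against 63187 and 71522 CPM in the deeper cells. The part of this difference in class rule was not tested. The members made up 3.85% of UMIs in the droplets of library 1 (interval 3.79 to 3.90) and 1.60% in library 2 (1.35 to 1.88), against 5.08% and 5.83% in the deeper cells. Without Ttn, the other 35 members took 3.14% of UMIs in the droplets of library 1, against 3.01% in the deeper cells, and 1.28% in those of library 2, against 3.11%. Over 5 ranges of depth, Ttn in library 1 held 0.707%, 1.33%, 1.67%, 2.02% and 2.32% of UMIs from the shallowest to the deepest. The other 35 members together held 3.14%, 3.20%, 3.13%, 3.03% and 2.94%. In library 2 the 4 ranges above 800 UMIs gave 1.80%, 2.26%, 2.56% and 2.83% for Ttn and 3.20%, 3.32%, 3.19% and 3.06% for the rest, while its 16 droplets of 500 to 800 UMIs gave 0.317% and 1.28%.

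**Figure D2:**
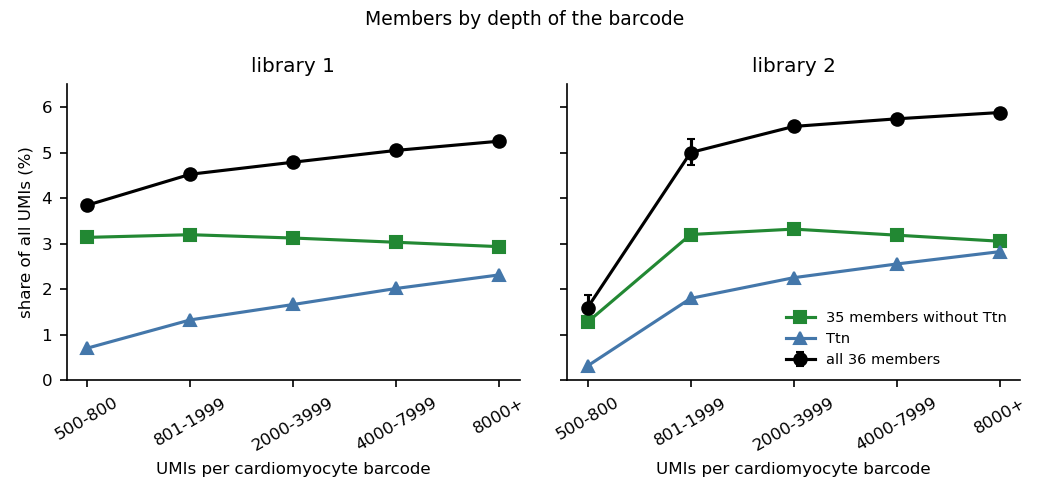
Share of UMIs held by all 36 members (black, with 95% binomial intervals), by Ttn (blue) and by the other 35 members (green), against the UMI range of cardiomyocyte barcodes in library 1 (left) and library 2 (right). Ttn climbs with depth in both libraries while the other members stay near 3% above 800 UMIs. The lowest range also takes clusters that were not named, unlike the others, and in library 2 it holds 16 droplets.

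In library 1 the members differed in both directions. All 4 light chain genes were higher in the droplets. Myl2 had 2434 CPM, against 1063 CPM in deeper cells, a 2.29-fold difference (2.16 to 2.42), and Myl3 had 1676 CPM, against 462 CPM, 3.63-fold (3.38 to 3.89). Of 8 thin-filament members with enough counts 5 were higher and 3 lower, with Actc1 at 877 CPM, against 253 CPM, Tpm1 at 2239 CPM, against 1151 CPM, and Lmod2 at 223 CPM, against 361 CPM. Of the 12 Z-disc members 5 were higher and 7 lower. Xirp1 had 81.1 CPM, against 35.4 CPM, and Tcap 973 CPM, against 586 CPM, on the higher side. Among the other members Des had 357 CPM, against 168 CPM, and Cryab 188 CPM, against 81.8 CPM. Several genes were lower. Ttn had 7070 CPM, against 20665 CPM, 0.342 times (0.331 to 0.354), Fhl2 3258 CPM, against 5564 CPM, and Synpo2 533 CPM, against 978 CPM. Fhod3 had 1765 CPM, against 3292 CPM, and Tnni3k 772 CPM, against 1392 CPM. Of 33 members with enough counts, 8 were at least 2-fold higher in library 1 and 1 (Ttn) at least 2-fold lower. Over 5063 genes 18.0% were at least 2-fold higher and 2.51% at least 2-fold lower. The median log2 ratio was 0.28 for the members and 0.16 for all these genes. In library 2, with 16 droplets, 13 of the 36 members had 0 counts. The interval of the ratio lay above 1 for 0 members there and below 1 for 9. Of these, 8 were also below 1 in library 1: Ttn, Nebl, Actn2, Ldb3, Fhl2, Synpo2, Fhod3 and Tnni3k. The other, Tnnt2, went opposite ways, at 1.25 times in library 1 and 0.379 times in library 2. These counts were not set against all genes. In library 2 the median log2 ratio over 13221 tested genes was -2.19 (1 added to each CPM), so most genes were lower there.

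The split followed the annotated span of the gene (GENCODE M21, GRCm38). Of the 15 members spanning under 20 kb, 14 were higher in the droplets, with a median log2 ratio of 0.73. Of the 11 members of 20 to 100 kb, 4 were higher, with a median of -0.40. Of the 7 members over 100 kb, which include Ttn at 279 kb, Nebl at 388 kb and Fhod3 at 425 kb, 1 was higher (Myom1), with a median of -0.85. All genes followed the same order, with medians of 0.97, 0.10 and -0.22 over 1291, 2551 and 1218 genes. Spearman's rho between span and log2 ratio was -0.66 over 33 members and -0.54 over 5060 genes. This is a description across genes of the same 2 sums, which share library and depth.

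**Figure D3:**
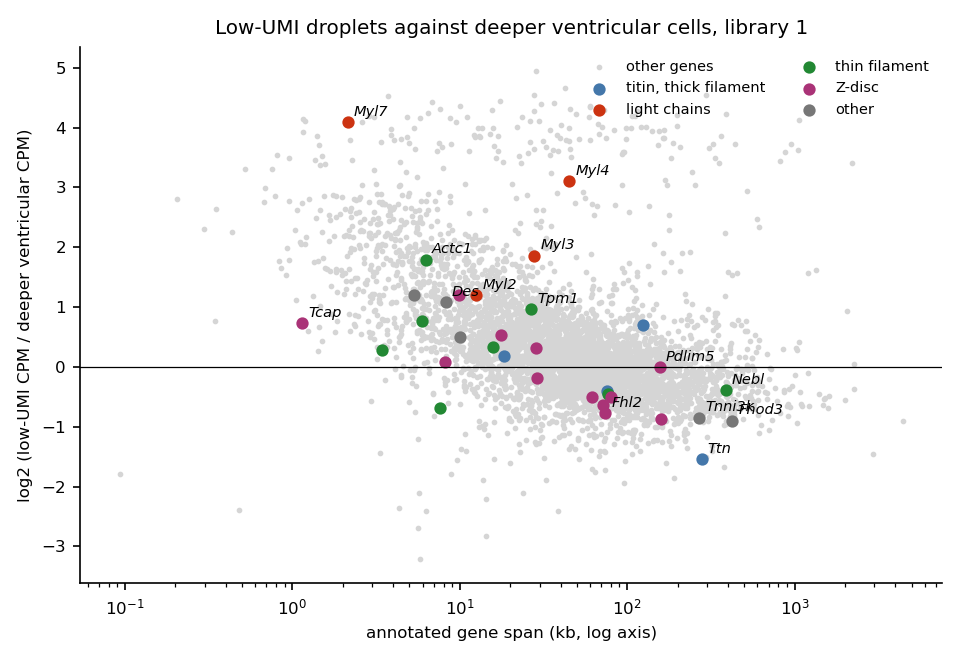
Each gene's log2 ratio of CPM in low-UMI droplets over deeper ventricular cells of library 1 against its annotated span in kb (log axis), with members coloured by role and other genes in grey. Short members such as Actc1 and Des lie above 0 and the longest, Ttn, Fhod3, Tnni3k and Nebl, below it. Myl7 and Myl4 lie highest among the members.

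Markers of other cells were higher in the droplets. The 8 fibroblast markers summed to 2233 and 6675 CPM in the low-UMI droplets, against 157 and 275 CPM in deeper ventricular cells, and 14307 and 17084 CPM in fibroblasts themselves. All 8 were above their level in deeper cells in library 1, and 7 of 8 in library 2, where Tcf21 had 0. The Ttn to Myl2 ratio was 2.91 and 2.42 in the droplets, against 19.2 and 31.7 in ventricular cells, and in fibroblasts it was 2.83 and 2.11. The make-up of the members' UMIs in the droplets of library 1 differed from that in ventricular cells by 28.4% of UMIs and from that in fibroblasts by 7.27% and in endothelial cells by 8.18%. In library 2, from 146 member UMIs, the differences were 35.4% from ventricular cells, 22.2% from fibroblasts, 19.5% from endothelial and 18.5% from endocardial cells. Mitochondrial counts were 1.62% and 1.35% of UMIs in the droplets, against 0.240% and 0.118%. The part of free RNA, and of any of these, in the droplet values was not tested.

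Tested over both libraries (edgeR quasi-likelihood, library as a block, Benjamini-Hochberg over 13221 genes), 2 of 35 members were called higher in low-UMI droplets and 0 lower, where 8.1% of all genes were called, 7.75% higher and 0.355% lower. Myl7 rose by a log2 fold change of 3.73 (SE 0.512, adjusted p = 1.05e-10), with 60.8 CPM from 30 counts in library 1 and 0 counts in library 2, against 3.56 and 0.534 CPM. Myl4 rose by 2.78 (SE 0.506, adjusted p = 2.39e-06), with 52.7 CPM from 26 counts and 109 CPM from 1 count, against 6.11 and 3.73 CPM. Both calls rest on library 1. Of the 9 atrial markers, 7 were higher in the droplets of library 1, where they summed to 1194 CPM, against 759.8 CPM in deeper cells, and in library 2 they summed to 0, against 521 CPM. Kcnj3, at 711 CPM, against 649 CPM, and Nppa, at 322 CPM, against 29.4 CPM, held most of that sum in library 1. Their part in the calls was not tested. Ttn had a log2 fold change of -3.31 (SE 2.03, adjusted p = 0.460), and DESeq2 called it lower (-3.34, adjusted p = 0.000911). Only the 2 called members had an unadjusted p under 0.05 in edgeR. The test had little power, since library 2 supplied 16 droplets: on simulated counts it recovered 1% of 2-fold and 14% of 4-fold changes. Of 45 other sarcomere genes tested, Tpm2, which encodes beta-tropomyosin, rose (log2 3.12, adjusted p = 3.82e-06, from library 1, with 0 counts in library 2) and none was called lower, and DESeq2 called 1 lower (Myh7).

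A GFP feature is listed in the count table, and a GFP UMI was seen in 17.9% of ventricular cells of library 1 and 23.0% of library 2. The 1304 and 507 cells with a GFP UMI were each paired with a cell without one at the nearest UMI total of the same library, giving median depths of 6621 and 9739 UMIs with GFP and 6621 and 9741 UMIs without. For 976 and 347 of them the call rests on 1 GFP UMI, so cells without one may carry GFP. What GFP marks is not stated in the labels. Rpl10a, a ribosomal protein gene, and Gt(ROSA)26Sor, the transcript of the Rosa26 locus, named here after their values were seen, rose most clearly in GFP cells (log2 1.06, adjusted p = 5.99e-43, and 0.77, adjusted p = 1.93e-20).

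The members as a set were close to level between these cells, and no large shift was seen. They made up 5.28% and 5.80% of UMIs in cells with a GFP UMI, against 5.10% and 5.95% in matched cells. In the edgeR fit 3 of 34 members tested were called, 1 higher and 2 lower, where 2.89% of 12727 genes were called, 0.801% higher and 2.09% lower. The median log2 fold change was -0.04 for the members and 0.00 for all genes. For the 29 members above 50 CPM in both libraries the fold changes ran from -0.29 (Synpo2) to 0.27 (Ankrd1). Intervals of the fold change lay within 2-fold for 32 of the 34, the exceptions being Myl4 and Myl7. On simulated counts the fit recovered 84% of 2-fold and 97% of 4-fold changes. That simulation gave all genes a common spread and the same change in both libraries, so it does not cover changes that differ between libraries.

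Fhl2 (chr1:43123074-43196984, minus strand, GRCm38) had 5405 CPM in GFP cells of library 1 and 4396 CPM in those of library 2, against 5596 and 5852 CPM in matched cells. It fell by 0.27 on the log2 scale (SE 0.066, adjusted p = 0.003665), lower in both libraries. Synpo2, which encodes the actin-binding Z-disc protein myopodin (chr3:123076519-123236149, minus strand), had 952 and 775 CPM, against 1035 and 1016 CPM. It fell by 0.29 (SE 0.0657, adjusted p = 0.00104), also lower in both. Ankrd1 (chr19:36111961-36120099, minus strand) had 182 and 133 CPM, against 171 and 85.5 CPM. It rose by 0.27 (SE 0.0741, adjusted p = 0.0129), higher in both. In all 3 the change was mostly in library 2. Library 1 alone gave -0.07 for Fhl2, -0.14 for Synpo2 and 0.07 for Ankrd1, and library 2 alone gave -0.48, -0.45 and 0.57. The fit took its spread from the trend over all genes, so the p-values do not weigh this disagreement.

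**Figure D4:**
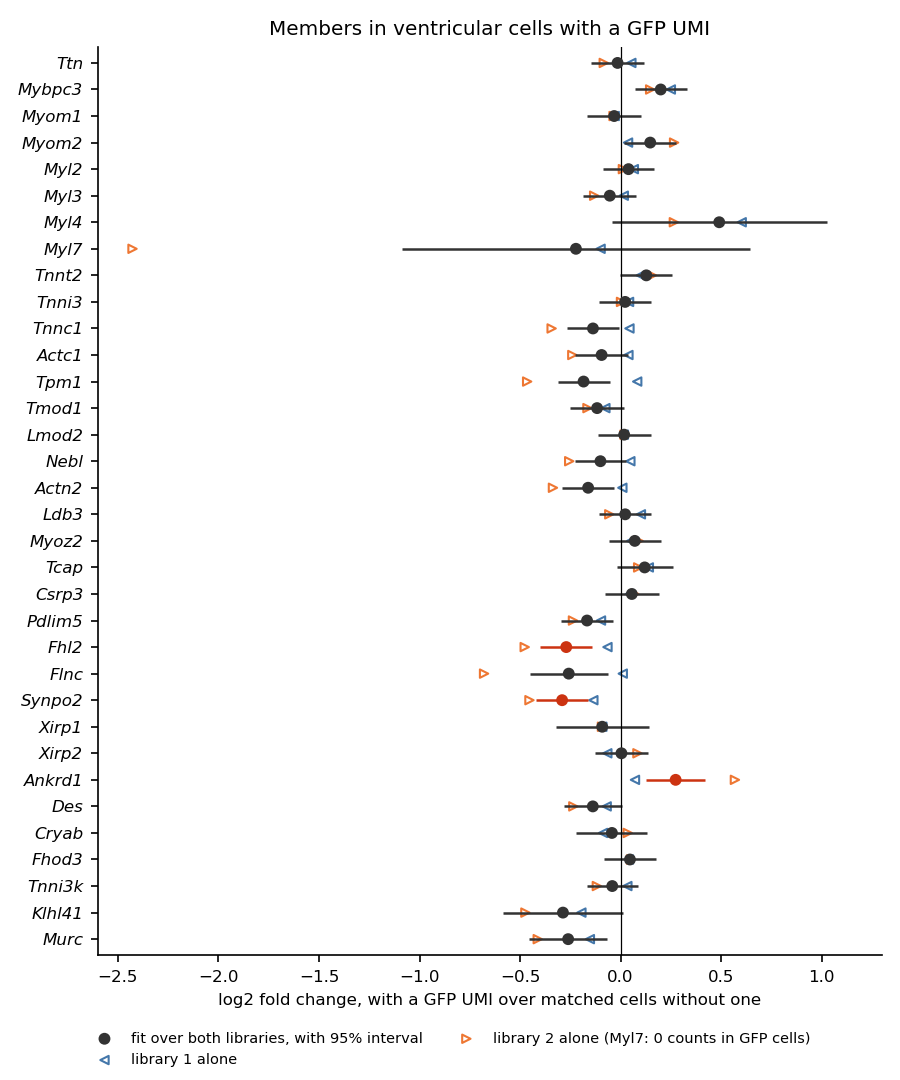
Log2 fold change of each tested member in ventricular cells with a GFP UMI over depth-matched cells without one, from edgeR with its 95% interval (filled points, red where the adjusted p was under 0.05), with the value of each library alone as open triangles. The library 2 value of Myl7 rests on 0 counts in GFP cells and on a small constant added to each count, so it is no bound. Fhl2, Synpo2 and Ankrd1 are red, and for each the library 2 value lies farther from 0 than the library 1 value.

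The other members were not called. Mybpc3 had 1365 and 1141 CPM in GFP cells, against 1136 and 986 CPM (log2 0.20, SE 0.0655, adjusted p = 0.0699), Ttn had 22559 and 28102 CPM, against 21509 and 28490 CPM (-0.02, interval -0.15 to 0.12), and Tnnt2 had 4141 and 4921 CPM, against 3823 and 4225 CPM (0.13, SE 0.0657). Myl2 had 1033 and 819 CPM, against 976 and 777 CPM (0.04, -0.09 to 0.17). Of the 34, 12 were higher and 10 lower in both libraries, and 12 went opposite ways. This split was not set against all genes, so nothing is read from it. At an unadjusted p under 0.05, 11 of 34 members (32.4%) and 11.9% of all genes passed. Of 45 other sarcomere genes tested, 0 rose and 2 fell: Pdlim3, at 71.1 and 61.7 CPM, against 91.3 and 81.6 CPM (log2 -0.41, adjusted p = 0.000167), and Pdlim7, at 16.5 and 6.28 CPM, against 22.5 and 12.2 CPM (-0.60, adjusted p = 0.00640).

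These calls depend on how cells were matched and on the model. The share of cells with a GFP UMI differed between the ventricular clusters, at 17.9%, 13.7% and 32.9% in library 1 and 4.96%, 10.7% and 24.9% in library 2, and Ankrd1 was highest in the third cluster of both. Matched within cluster, Ankrd1 gave 0.16 (adjusted p = 0.494) and was no longer called, while Fhl2 (-0.24, adjusted p = 0.0380) and Synpo2 (-0.26, adjusted p = 0.0157) were. Pdlim7 also lost its call there, at -0.42. Without matching none of these 3 members was called, and without the library block, or with DESeq2, no member was called.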

How the data were processed

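The authors deposited raw, unnormalized UMI counts for each gene in each barcode. The file headers name Cell Ranger 6.0.0, and the submitters' processing notes also list fastp, Trimmomatic, Seurat, edgeR and GRCm38 (mm10). The use of intronic reads and of strand in counting is not stated here, so overlapping genes and paralogs that share reads are uncertain. Barcode suffixes 1 and 2 were taken as the samples whose titles end in 1 and 2. No column of per-sample values was left unused.

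Cells had at least 500 UMIs, 200 genes and at most 25% mitochondrial counts, which 22137 of 22183 barcodes passed. Doublets were scored against 2 simulated doublets per cell (40 neighbours, marked above 90% simulated), which marked 6.82% and 6.67% of cells; 48.8% and 53.8% of simulated doublets passed the mark, so doublets may remain. Leiden clusters (resolution 1, 30 components, 2000 genes, 15 neighbours) were made without the members, the 50 other sarcomere genes and GFP, and named from marker lists without members. Counts were summed per library and class. edgeR 4.0.16 (TMM, filterByExpr, quasi-likelihood, library as a block) in R 4.3.3 gave adjusted p-values over all genes, and DESeq2 1.42.0 was an alternative. The classes of a library come from 1 suspension, so the libraries pair them by construction. With 2 libraries the fits had 1 residual degree of freedom. Their prior degrees of freedom were infinite, so each gene's spread was taken from the trend over all genes. The p-values therefore do not measure how far the 2 libraries disagree on a given gene. That pooled spread comes from these libraries only and may be technical. A gene entered the atrial-type comparison with 20 counts over both classes in each library, and a class at 0 was set to 3 counts. In library 1 alone, low-UMI ratios needed 20 counts in the droplets, seen or given by the deeper level. Named genes are all members past a threshold, at least the 2 most counted per role, and called genes of the other list. The script was tested on simulated data, with a common spread for all genes and the same change in both libraries. The members and lists were chosen with earlier results of these data known. Python 3.11.15, numpy 2.4.6, scipy 1.17.1, scikit-learn 1.9.0, leidenalg 0.10.2 and matplotlib 3.10.9 were used.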

Additional observations from a re-analysis of the deposited data

How the results depend on the processing

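The summed member level (5.45%), the low-UMI calls and the atrial-type count kept within 1.5 times of their values under every alternative that includes both libraries. A count can stay while its members change. At resolution 2 the atrial-type count was 6, at that limit, and its lower members were Myl2, Fhl2 and Fhod3 in place of Murc. Calling cells atrial-type singly by their atrial markers took 2689 and 552 cells, so that alternative describes a much wider class. The count of members called with a GFP UMI, 3, was 0 with no replicate block, 0 with DESeq2 (where 1427 genes kept an adjusted p) and 1 without matching (Myom2); it was 2 or 3 otherwise. Without the block no gene of 12727 was called, and 106 had an unadjusted p under 0.05. Members 2-fold apart between atrial-type and ventricular cells numbered 4 in both libraries, and 7 in each library taken alone; the summed level was 5.07% to 5.83% with either library left out. The atrial-type count was 3 (Murc no longer counted) when 20 counts were required in the atrial-type sum, an alternative added after seeing the data, as were GFP matching from 2000 UMIs and droplets of up to 1500 UMIs, which moved no count of members. Other sarcomere genes called higher in the droplets, 1 as reported, numbered 2 with droplets of up to 1500 UMIs or deeper cells from 5000 UMIs, and 3 with no replicate block. At resolution 0.5 no atrial-type cluster was found, so that value is missing. With 1 library left out the GFP and low-UMI fits have no test, and gave fold changes only. The low-UMI scaling moved the median of all genes by 1.17 on the log2 scale between raw CPM and TMM, so its fold changes are relative to that shift. Library 2 had only 16 low-UMI droplets and 25 atrial-type cells, so its values rest on few cells.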
